A study of Mus musculus with 18 samples.

Results

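Secretoglobins are small secreted proteins of mucosal epithelia, and 3 of them, Scgb1a1, Scgb3a1 and Scgb3a2, are the secretoglobins for which mouse airways are best known. The 3 genes were chosen by symbol, matched to the Entrez identifiers of the count files, and followed through all 18 libraries of 6 sorted cell populations. They are 3 of 27179 genes counted and 3 of 31 secretoglobin genes in the files. RNA had been sequenced from cells sorted out of untreated C57BL/6 mice, which were young adult males by the study's methods, with 3 libraries per population and 1 mouse per library. Tracheas of mice 1 to 3 gave basal stem cells (BSCs), gated as positive for NGFR, and the NGFR-negative non-basal cells. Lungs of mice 4 to 6 gave 2 airway luminal populations, both EpCAM-positive and CD104-positive, of which the CD24hi gate is enriched in ciliated cells and the CD24lo gate in club cells, together with alveolar cells (EpCAM-positive, CD104lo) and EpCAM-negative, non-epithelial cells. All 6 populations are enriched by surface markers rather than pure, and a series text that speaks of airways of 6 lungs without a trachea differs from the sample labels, which were followed here. Organ and mice change together between trachea and lung, so the 2 cannot be told apart in any comparison of a tracheal with a lung population.

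Secretoglobins are held together as disulphide-linked dimers and are released into the fluid that lines the airway. Scgb1a1, also known as uteroglobin or club cell secretory protein, is the classical marker of club cells, the dome-shaped secretory cells of the bronchioles that also metabolise inhaled compounds and renew the airway epithelium. Scgb3a1 is known from mucous and secretory cells of the larger airways, and Scgb3a2 from club cells and early airway progenitors, where it is a target of the lung transcription factor NKX2-1. Basal cells lie beneath the luminal cells of the trachea and give rise to secretory and ciliated cells.

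Sequence before the transcription start was at hand for Scgb3a1, the only member with an entry in the RefSeq promoter table of GRCm38.p6. Its 250 bases before the annotated start, chr11:49663345-49663594 on the plus strand, are shown because NKX2-1, FOXA and C/EBP factors are described regulators of secretoglobin genes and because the RNA levels of these factors are given further on. Capitals mark matches to CTCAAG or CAAGTG (NKX2-1) and to TGTTTNC (FOXA), searched on both strands.
Scgb3a1 promoter: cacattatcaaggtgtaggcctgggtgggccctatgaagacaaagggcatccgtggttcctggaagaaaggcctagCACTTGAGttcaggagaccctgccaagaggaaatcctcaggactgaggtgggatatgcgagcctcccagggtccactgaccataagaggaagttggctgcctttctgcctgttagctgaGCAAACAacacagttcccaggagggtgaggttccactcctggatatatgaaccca
The letters CTCAAG matched on the minus strand at bases 172 to 167 before the start, and CAAGTG overlapped them at bases 174 to 169. The FOXA letters matched on the minus strand at bases 55 to 49, and the C/EBP letters TTGCNNAA had no match. Over 32851 promoter windows of the same length, 13.3% held CTCAAG, 11.6% CAAGTG, 17.8% TGTTTNC and 9.56% TTGCNNAA, so matches of this kind are common.

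In mm10, Scgb1a1 (Entrez 22287) lies on the minus strand of chromosome 19 from 9083642 to 9087956 and has 3 exons. Scgb3a1 (Entrez 68662) lies on the plus strand of chromosome 11 from 49663595 to 49665118 and has 4 exons. Scgb3a2 (Entrez 117158) lies on the plus strand of chromosome 18 from 43764301 to 43767399 and has 3 exons. Their counted lengths are 468, 598 and 842 bases, and 0% of the exonic bases of each overlap another annotated gene.

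The tracheal libraries held 29317215 to 32993621 counted reads and the lung libraries 9811503 to 13208897. Marker genes followed the labels of the gates. The basal keratin gene Krt5 averaged 1538 RPKM in BSCs against 120 in non-basal cells, the ciliogenesis factor gene Foxj1 averaged 626 in CD24hi against 70.6 in CD24lo cells, and the surfactant gene Sftpc averaged 156219 in alveolar cells. RPKM denotes reads per kilobase of gene length and per 1e6 reads, with library sizes scaled by TMM (a trimmed mean of the log ratios between libraries), and levels are compared between genes on this scale only. Differences between populations are log2 fold changes from edgeR's quasi-likelihood test over 17989 tested genes, with Benjamini-Hochberg adjustment, and a difference was called at an adjusted p-value under 0.05. All 3 secretoglobins were among the genes tested. In sorted bulk samples, fewer cells of a type and less RNA per cell cannot be told apart. The 95% Wilson interval of a gene's share of the reads was widest for Scgb3a1 in alveolar replicate 3, at 18.8% of the value to either side, and covers counting error only.

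Scgb1a1 was the most abundant transcript of both airway luminal gates of the lung. In CD24lo cells it took 2398185, 3137791 and 2706328 reads in the 3 libraries, which is 21.5%, 26.8% and 27.6% of all counted reads. In CD24hi cells it took 4.66%, 3.62% and 3.91% of the reads, and in tracheal non-basal cells 2.72%, 2.47% and 2.65%. Per gene length it ranked first of all genes in each of the 6 airway libraries of the lung and second in each of the 3 non-basal libraries. In the other populations it ranked 14 to 35 (BSCs), 11 to 13 (alveolar) and 8 to 16 (EpCAM-negative).

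On the RPKM scale, Scgb1a1 stood at 471751, 658300 and 665629 in CD24lo, 90690, 69135 and 74841 in CD24hi, and 63176, 56530 and 60832 in non-basal cells. Levels were 3686, 4674 and 3663 in alveolar cells, 1510, 2435 and 2499 in EpCAM-negative cells, and 1706, 1249 and 972 in BSCs. The CD24lo libraries were higher than every other library, and the BSC and EpCAM-negative libraries overlapped. The group means were 598560 ± 109881 (SD, n = 3) in CD24lo and 1309 ± 371 (SD, n = 3) in BSCs, the lowest population. With the populations in order of their means (CD24lo, CD24hi, non-basal, alveolar, EpCAM-negative, BSC), the neighbours CD24hi and non-basal did not differ past the threshold (adjusted p = 0.167, edgeR), although their libraries did not overlap, beside 36.9% of tested genes called lower in non-basal cells. BSCs were lower than EpCAM-negative cells, with a log2 difference of -0.71 (adjusted p = 0.0130, edgeR) and overlapping libraries, beside 36.6% of tested genes called lower.

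Scgb3a1 was instead highest in the trachea. Its RPKM values were 16478, 19669 and 18832 in non-basal cells and 7094, 6598 and 8755 in CD24lo cells. In CD24hi cells they were 840, 376 and 601, and in BSCs 387, 334 and 244. All non-basal libraries lay above all CD24lo libraries, while CD24hi and BSC libraries overlapped. Alveolar cells had 20.5, 28.0 and 18.6 RPKM and EpCAM-negative cells 17.5, 23.9 and 21.3, which rest on 110 to 182 reads per library. Scgb3a1 ranked 3 to 4 of all genes per length in non-basal cells and 6 to 9 in CD24lo cells. In its order of means (non-basal, CD24lo, CD24hi, BSC, alveolar, EpCAM-negative), alveolar and EpCAM-negative cells were the only neighbours not called (adjusted p = 0.768, edgeR), and BSCs were lower than CD24hi cells by a log2 difference of -0.91 (adjusted p = 0.00237, edgeR), beside 39.3% of tested genes called lower.

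Scgb3a2 was high in tracheal non-basal and lung CD24lo cells and was the secretoglobin with the highest level in BSCs. Its RPKM values were 13576, 12800 and 12235 in non-basal and 8601, 10184 and 13317 in CD24lo cells, and these libraries overlapped. BSCs held 2325, 2042 and 1817, above the 1135, 822 and 1153 of CD24hi cells. Alveolar cells held 45.4, 58.4 and 48.4 and EpCAM-negative cells 27.7, 40.9 and 44.0. In every BSC library Scgb3a2 was among the genes ranked 9 to 13 per length. Along the order of means (non-basal, CD24lo, BSC, CD24hi, alveolar, EpCAM-negative), non-basal and CD24lo did not differ past the threshold (adjusted p = 0.250, edgeR), nor did alveolar and EpCAM-negative cells (adjusted p = 0.0673, edgeR). BSCs exceeded CD24hi cells by 0.99 (log2, adjusted p = 0.000163, edgeR), beside 32.7% of tested genes called higher. Over the 15 pairs of populations, 14 were called for Scgb1a1, 14 for Scgb3a1 and 13 for Scgb3a2, and between 48.2% and 72.2% of all tested genes were called in a pair.

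**Figure D1:**
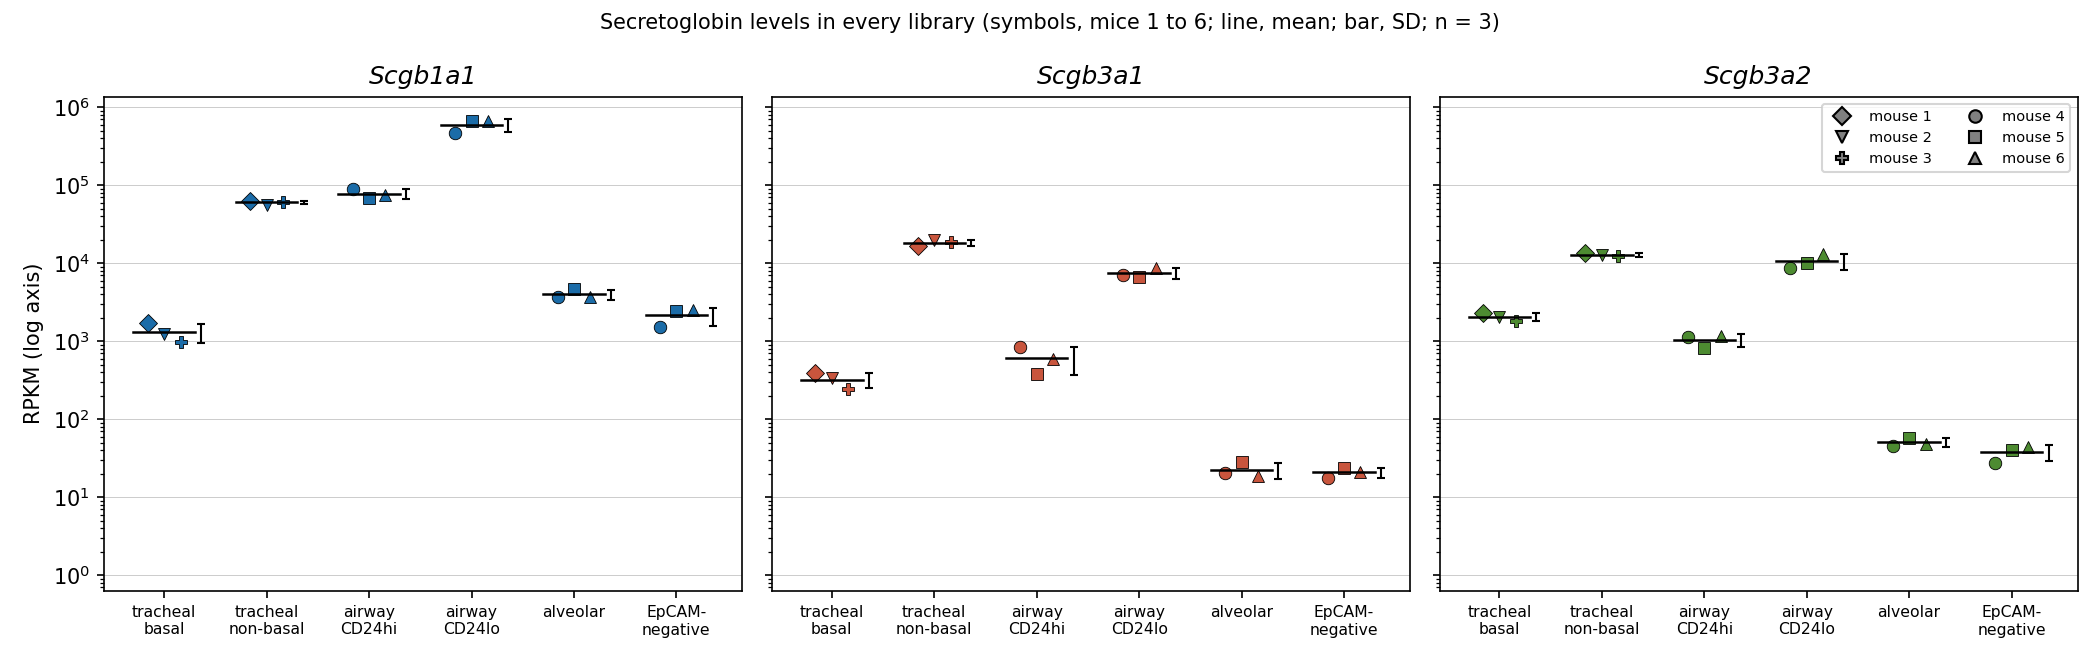
Level of each secretoglobin in RPKM (log axis) in the 6 populations, with 1 symbol per library (shape, mouse), a line for the mean and a bar for the SD (n = 3). Scgb1a1 peaked in lung CD24lo cells at 598560 RPKM, whereas Scgb3a1 and Scgb3a2 peaked in tracheal non-basal cells at 18326 and 12871.

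Within the trachea, all 3 secretoglobins were higher in non-basal cells than in BSCs of the same mice, against a background of 26.2% of tested genes called higher. The log2 fold change was 5.52 (SE 0.29, adjusted p = 1.10e-10, edgeR) for Scgb1a1, a 46.0-fold difference. It was 5.83 (SE 0.29, adjusted p = 6.61e-11, edgeR) for Scgb3a1, a 57.0-fold difference. For Scgb3a2 it was 2.64 (SE 0.20, adjusted p = 9.16e-09, edgeR), a 6.24-fold difference. The 3 genes thus differed in size, and Scgb3a2 in BSCs amounted to 16.02% ± 1.98 (SD, n = 3) of its non-basal mean, compared with 2.18% ± 0.616 for Scgb1a1 and 1.76% ± 0.395 for Scgb3a1.

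The listed companions of secretoglobins moved with them between the tracheal gates. All 15 club cell genes, of which Cyp2f2 encodes a cytochrome P450 of club cells and Aldh1a1 a retinal dehydrogenase, were higher in non-basal cells, and their median log2 fold change was 2.04 (0.02 over all tested genes). All 7 goblet genes were higher too (median 4.26), among them those of the gel-forming mucins Muc5b (5.63) and Muc5ac (4.26). Of other cell types' markers, 6 of 7 ciliated (median 3.88), 5 of 5 neuroendocrine (4.38), 5 of 6 stromal (6.48) and 3 of 6 leukocyte genes (1.67) were higher in non-basal cells. All 6 of 6 basal genes were lower (-3.14). The remaining stromal gene, Dcn, was lower too, at 161 RPKM in BSCs and 31.9 in non-basal cells. Summed stromal RPKM was 159 to 163 in BSC but 28.9 to 46.5 in non-basal libraries. For alveolar type 2, 5 of 7 genes were higher and 1 lower (2.07). For alveolar type 1, 2 of 6 were higher and 2 lower (-0.86), and 2 of 5 endothelial genes were higher (3.40). The endothelial genes were low in both gates, with summed RPKM of 0.196 to 0.250 in BSC and 0.918 to 1.37 in non-basal libraries. The neuroendocrine genes summed to 0.822 to 1.11 in BSC and 13.1 to 16.7 in non-basal libraries. The level in BSCs was a median of 24.4% of the non-basal mean over the 15 club cell genes (range 1.52% to 56.7%), 5.18% over the 7 goblet genes (1.75% to 11.1%) and 6.78% over 7 ciliated genes (2.40% to 107%). Scgb1a1 and Scgb3a1 lay below each of these 3 medians and Scgb3a2 between them. Luminal transcripts were therefore present in the NGFR-positive gate at levels that differ from gene to gene, and their part in the secretoglobin signal of BSCs was not tested.

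Between the airway gates of the lung, secretoglobins were higher in CD24lo than in CD24hi cells, where 27.2% of tested genes were called higher. The log2 fold changes were 2.94 (SE 0.26) for Scgb1a1, 3.63 (SE 0.26) for Scgb3a1 and 3.37 (SE 0.21) for Scgb3a2, with adjusted p-values of 3.02e-08, 4.16e-09 and 9.32e-10 (edgeR). In folds these are 7.65, 12.4 and 10.3. CD24hi cells kept 13.1%, 8.10% and 9.69% of the CD24lo level of Scgb1a1, Scgb3a1 and Scgb3a2. The 15 club cell genes, all of them called higher in CD24lo, had a median of 19.7% in CD24hi cells (range 7.46% to 74.1%). Ciliated genes ran the other way, with 7 of 7 measured members lower in CD24lo (median log2 fold change -3.15), and CD24lo cells still held a Foxj1 level of 70.6 RPKM. Markers of other cell types were higher in CD24lo cells together with the secretoglobins, namely 7 of 7 goblet genes (median log2 fold change 3.37), 6 of 6 basal genes (3.23), 7 of 7 alveolar type 2 genes (1.95), 4 of 5 neuroendocrine genes (2.72) and 5 of 6 stromal genes (1.25), beside a median of 0.06 over all tested genes. Fewer were called in the remaining lists. For alveolar type 1, 3 of 6 were higher and 1 lower (0.87), and 1 of 5 endothelial (0.42) and 1 of 6 leukocyte genes (0.29) were higher. In summed RPKM, the basal genes ranged from 133 to 217 in CD24lo and from 15.2 to 18.2 in CD24hi libraries, the goblet genes from 9780 to 13138 and from 603 to 1456, and the alveolar type 2 genes from 6135 to 8754 and from 1454 to 2697. The stromal genes ranged from 194 to 264 and from 41.0 to 109, and the neuroendocrine genes from 9.003 to 12.2 and from 2.81 to 3.14. The part of these cells, and of club cells in the CD24hi gate, in the secretoglobin difference was not tested.

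Alveolar cells held little secretoglobin RNA compared with the airway. The CD24lo excess over alveolar cells was 7.22 (SE 0.31) for Scgb1a1, 8.38 (SE 0.33) for Scgb3a1 and 7.72 (SE 0.26) for Scgb3a2 on the log2 scale (adjusted p = 3.97e-12, 1.55e-12 and 2.66e-13, edgeR), beside 24.2% of tested genes called higher. Among 17989 tested genes, 22 had a larger fold change than Scgb3a1 in this comparison, 45 a larger one than Scgb3a2 and 74 a larger one than Scgb1a1. CD24hi cells, too, exceeded alveolar cells by 4.29, 4.76 and 4.35 (log2), and all 3 differences were called, with 30.5% of tested genes called higher. Alveolar cells thus held 0.670% ± 0.0964 of the CD24lo level of Scgb1a1, 0.299% ± 0.0667 of Scgb3a1 and 0.474% ± 0.0633 of Scgb3a2 (SD, n = 3).

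Secretoglobin reads were also present in the EpCAM-negative, non-epithelial gate. Scgb1a1 had 8799, 13810 and 15359 reads there, Scgb3a1 130, 173 and 167, and Scgb3a2 291, 417 and 487. Relative to CD24lo cells these levels were 0.359%, 0.279% and 0.351%. The 3 shares are close to one another, and 10 of the 15 club cell genes were likewise under 1% of their CD24lo level in this gate (median 0.769%). In alveolar cells 5 of the 15 were under 1%, with a median of 4.74%.

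Alveolar and EpCAM-negative cells, the populations with the least Scgb3a1 and Scgb3a2, differed in Scgb1a1, which was 0.90 higher (log2, SE 0.24, adjusted p = 0.00335, edgeR) in alveolar cells. Of tested genes, 29.2% were called higher. Scgb3a1 had a log2 difference of 0.10 (95% interval -0.46 to 0.66) and overlapping libraries. For Scgb3a2 the difference was 0.43 (95% interval 0.02 to 0.85, adjusted p = 0.0673, edgeR) with libraries that did not overlap. This one depended on the fit. It was called with the mouse as a block (0.45, adjusted p = 0.0440, edgeR), with only the 6 libraries of these populations (0.46, adjusted p = 0.0248, edgeR) and without EpCAM-negative replicate 3 (0.59, adjusted p = 0.0302, edgeR). The stromal marker genes summed to 8090 to 8390 RPKM in the EpCAM-negative libraries and to 228 to 363 in the alveolar ones.

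**Figure D2:**
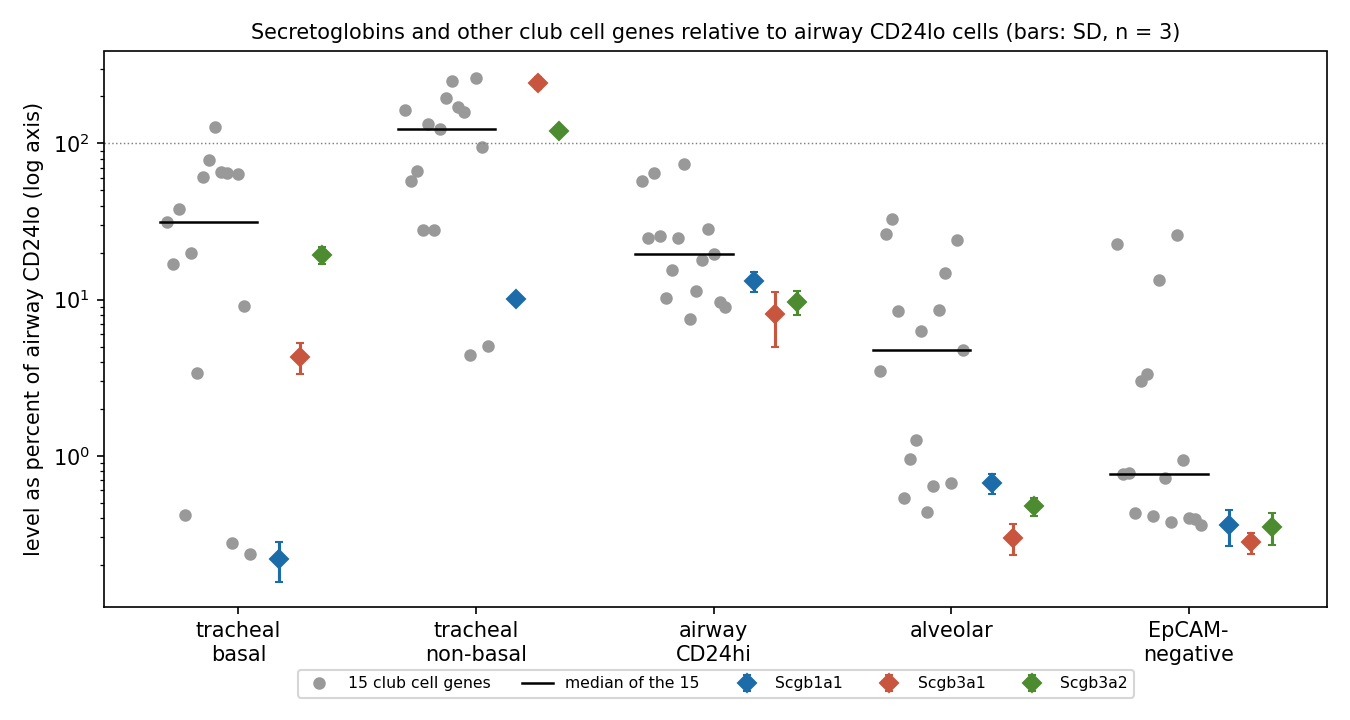
Level in 5 populations as a percent of the airway CD24lo mean (log axis, dotted line at 100%), for the 3 secretoglobins (coloured, bars SD, n = 3) and the 15 club cell genes (grey points, line at their median). In alveolar and EpCAM-negative cells the secretoglobins lay at 0.670% or less, whereas in BSCs they ranged from 0.219% (Scgb1a1) to 19.3% (Scgb3a2).

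Scgb1a1 had the highest level of the 3 in both tracheal non-basal and lung CD24lo cells, but the members differed between these populations in different directions. Against tracheal non-basal cells, lung CD24lo cells had 9.95-fold more Scgb1a1 (log2 3.31, SE 0.26, adjusted p = 1.32e-08, edgeR), beside 27.8% of tested genes called higher. They had less Scgb3a1 (log2 -1.29, SE 0.24, adjusted p = 0.000226, edgeR), beside 25.3% called lower. Scgb3a2 had a log2 difference of -0.27, with a 95% interval of -0.67 to 0.13. Scgb1a1 and Scgb3a1 therefore differed in opposite directions, and Scgb3a2 was not called. The 15 club cell genes were divided as well, with 6 higher and 7 lower in CD24lo. Hp, which encodes haptoglobin, was 4.49 higher in the lung, whereas Lypd2, which encodes a small Ly6-family protein, was lower by a log2 difference of -1.39. Among goblet genes 2 were higher (Tff2 1.85, Muc5ac 0.78) and 4 lower, the lowest being Fcgbp at -4.32.

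BSCs and alveolar cells, the pair of populations on which the study itself centres, were opposite in sign for the members. Scgb1a1 was lower in BSCs (log2 -1.61, SE 0.24, adjusted p = 1.44e-05, edgeR), beside 35.6% of tested genes called lower. Scgb3a1 was 3.85 higher (SE 0.27, adjusted p = 1.03e-09, edgeR) and Scgb3a2 5.34 higher (SE 0.23, adjusted p = 9.67e-13, edgeR), beside 30.5% called higher. A single secretoglobin would thus order these 2 populations differently from another.

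**Figure D3:**
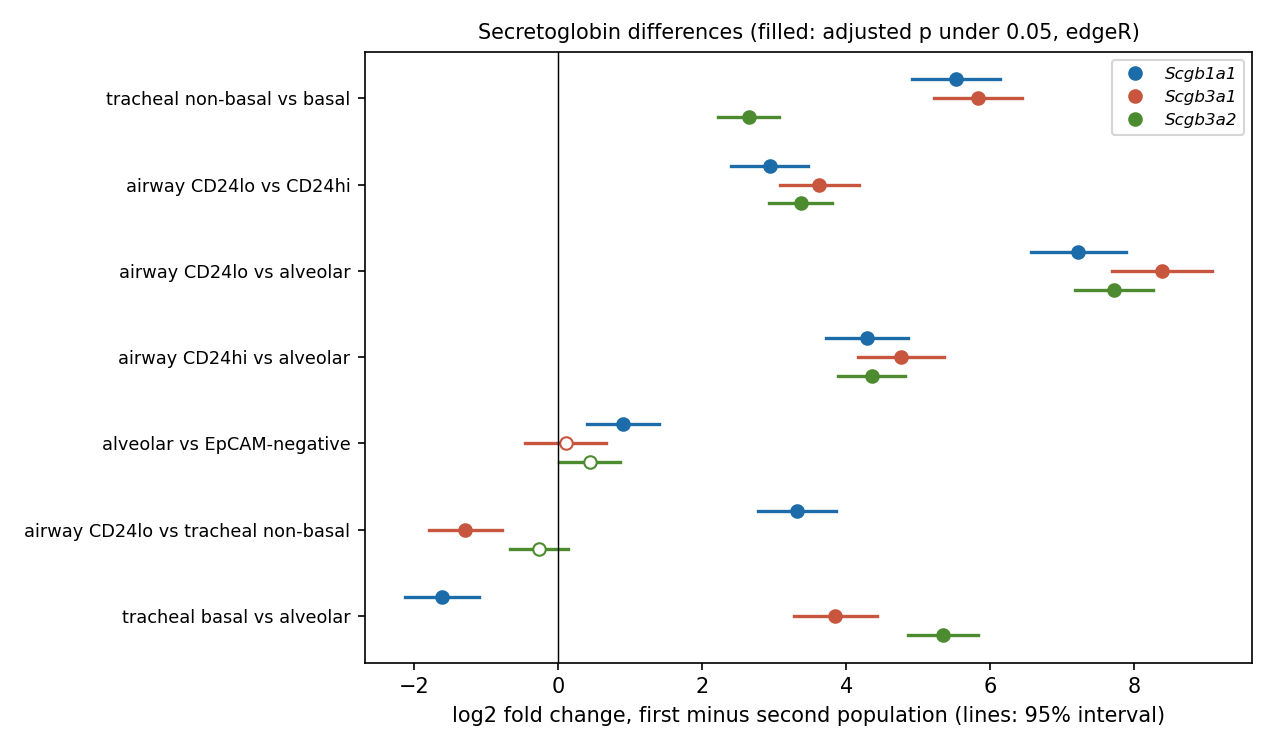
Fold change of each secretoglobin (log2, first minus second population; point, estimate; line, 95% interval; filled where the adjusted p-value is under 0.05) in 7 comparisons. All 3 genes were higher in CD24lo than in alveolar cells (7.22 to 8.38). Against non-basal cells, CD24lo cells were higher in Scgb1a1 (3.31) and lower in Scgb3a1 (-1.29), and Scgb3a2 was not called (-0.27).

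The make-up of the secretoglobin pool therefore differed between the tracheal and the lung gates, and also between the tracheal gates themselves. Summed over the 3 genes, secretoglobins took 22.6% to 29.0% of all reads in CD24lo, 4.58% to 4.68% in non-basal and 3.73% to 4.82% in CD24hi cells. In BSCs they took 0.251% to 0.358%, in alveolar cells 0.156% to 0.202% and in EpCAM-negative cells 0.0757% to 0.121%. Of the summed RPKM, Scgb1a1 made up 97.0% in CD24lo, 98.0% in CD24hi, 98.2% in alveolar and 97.3% in EpCAM-negative cells. It made up 65.8% in non-basal cells, where Scgb3a1 added 20.1% and Scgb3a2 14.1%. In BSCs it was down to 35.0%, and Scgb3a2 led with 56.3%.

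**Figure D4:**
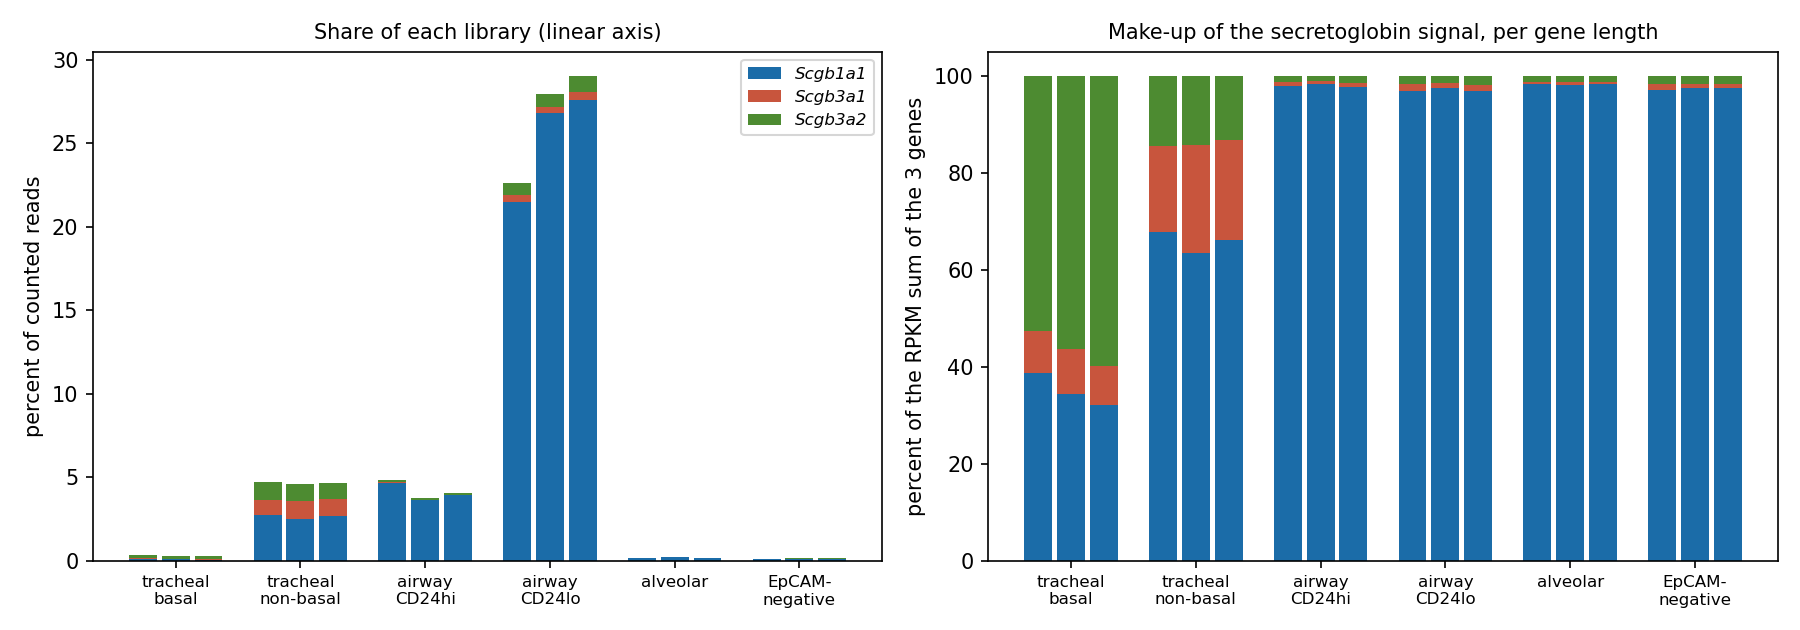
Left, percent of all counted reads taken by the 3 secretoglobins in each library (stacked, 3 bars per population for its 3 libraries, linear axis from 0). Right, make-up of the summed RPKM of the 3 genes, where Scgb1a1 fills 97.0% to 98.2% of the mean in the lung gates, 65.8% in non-basal cells and 35.0% in BSCs.

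The ratio of one secretoglobin to another within a library needs no scaling between libraries. Scgb3a2 per Scgb1a1, corrected for length, was 136%, 164% and 187% in the BSC libraries and 21.5%, 22.6% and 20.1% in the non-basal ones. In CD24lo libraries it was 1.82%, 1.55% and 2.00%, in CD24hi 1.25%, 1.19% and 1.54%, in alveolar 1.23%, 1.25% and 1.32% and in EpCAM-negative libraries 1.84%, 1.68% and 1.76%. BSC, non-basal and lung libraries thus formed 3 separate ranges, and within the lung the EpCAM-negative values fell inside the CD24lo range. For the ratio of Scgb3a2 to Scgb1a1, non-basal cells differed from BSCs by -2.91 (log2) and CD24lo from non-basal cells by -3.59, each with p = 0.1 in a two-sided exact permutation test. This is the smallest p that 3 libraries against 3 allow, so no ratio could reach 0.05, and over the 15 ratio tests its adjusted value is 0.136.

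Scgb3a1 per Scgb1a1 was, as a geometric mean, 0.248 in BSCs and 0.304 in non-basal cells, with overlapping libraries (log2 difference 0.29, exact permutation p = 0.2, adjusted 0.231). In the lung it was 0.0126 in CD24lo, 0.00740 in CD24hi, 0.00555 in alveolar and 0.00991 in EpCAM-negative cells. The step from CD24lo to non-basal cells was 24.2-fold (exact permutation p = 0.1, adjusted 0.136) and the libraries did not overlap. Within the lung, the CD24lo ratio exceeded the CD24hi ratio by 0.76 and the alveolar ratio by 1.18 (log2, exact permutation p = 0.1, adjusted 0.136 for each), with no overlap.

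Scgb3a2 per Scgb3a1 was 6.49 in BSCs and 0.704 in non-basal cells, a 9.22-fold difference (exact permutation p = 0.1, adjusted 0.136) with no overlap. In the lung gates it lay between 1.42 (CD24lo) and 2.29 (alveolar). CD24lo and CD24hi libraries overlapped in this ratio (log2 difference -0.33, exact permutation p = 0.3, adjusted 0.321).

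**Figure D5:**
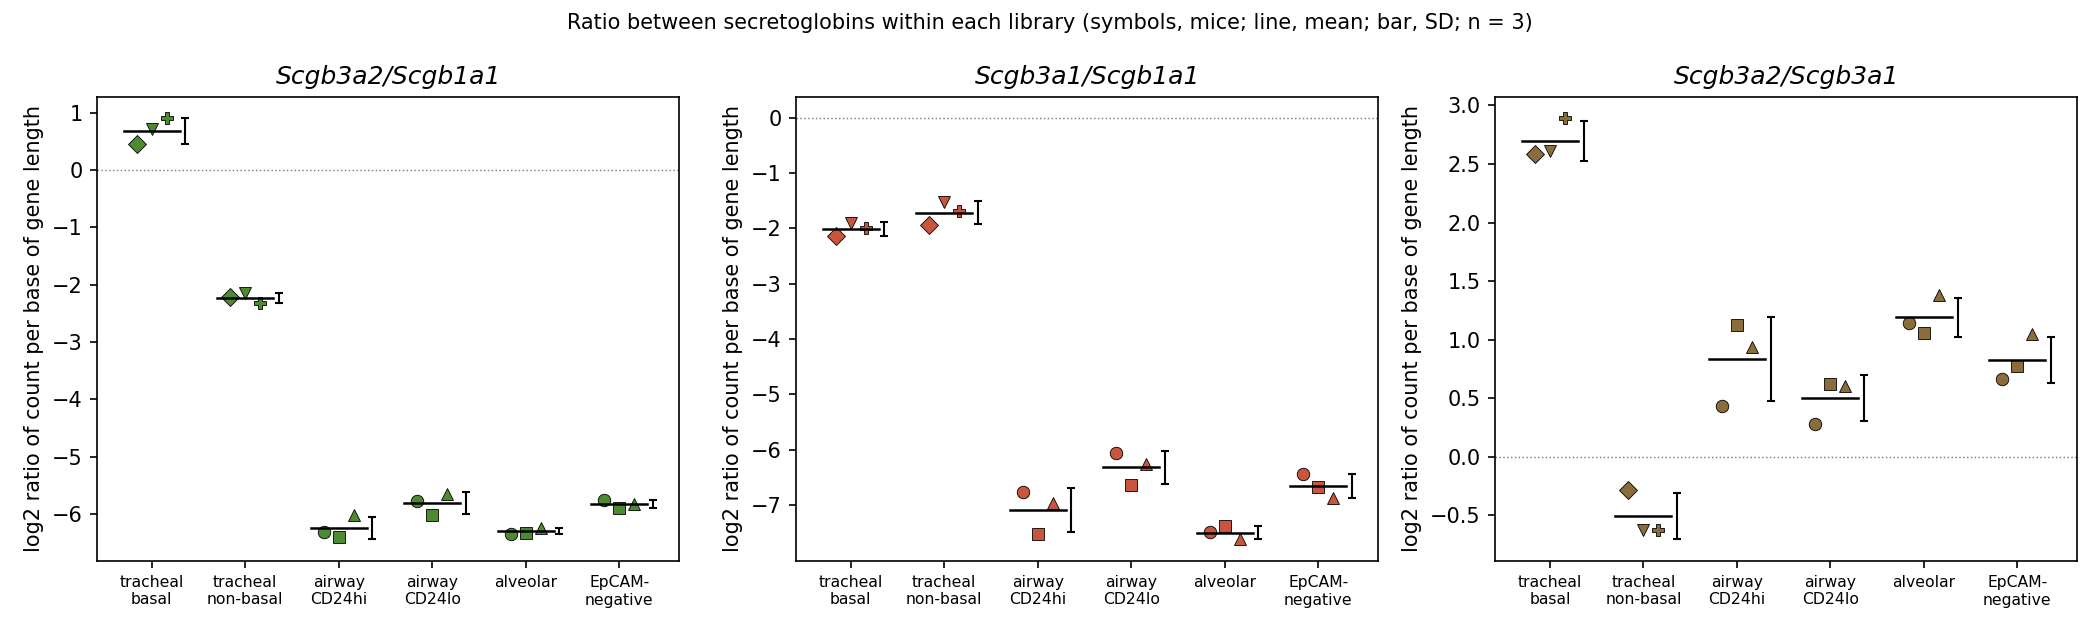
Log2 ratio between pairs of secretoglobins within each library, per base of gene length (symbols, mice; line, mean; bar, SD, n = 3; dotted line, equal levels). Scgb3a2 exceeded Scgb1a1 in the 3 BSC libraries and in no other library, and the lung gates lay between -6.39 and -5.64 for this ratio.

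A list of 10 genes described as regulators of secretoglobin genes or of secretory cells held transcription factors and the receptor gene Notch2. Of these, 6 were higher and 1 lower in CD24lo than in CD24hi cells, beside 27.2% and 27.8% of all tested genes. Between CD24lo and alveolar cells 5 were higher and 4 lower, beside 24.2% in each direction. In non-basal cells 3 were higher and 3 lower than in BSCs, close to the 26.2% and 21.9% of all tested genes. Nkx2-1, the homeobox factor of lung and thyroid, averaged 191 RPKM in alveolar, 82.7 in CD24lo, 68.4 in CD24hi, 50.5 in BSCs, 41.3 in non-basal and 2.63 in EpCAM-negative cells, and was lower in non-basal cells than in BSCs (log2 -0.29, adjusted p = 0.0263, edgeR). Cebpa, a bZIP factor of differentiated lung epithelium, was likewise highest in alveolar cells at 223 RPKM against 69.0 in CD24lo cells. Both genes were highest in a population with 0.670% or less of the CD24lo level of any member. Among the other factors, Cebpd was highest in EpCAM-negative cells (216 RPKM) and Gata6 in alveolar cells (26.0). Cebpb had its highest means in EpCAM-negative (108) and CD24hi cells (87.6), with overlapping libraries and no called difference (adjusted p = 0.154, edgeR). Hes1 had its highest means in CD24lo (258) and non-basal cells (234), with non-basal libraries from 95.6 to 316. Its CD24lo level did not differ past the threshold from non-basal, CD24hi or BSC levels (adjusted p = 0.757, 0.241 and 0.122, edgeR). The part of any listed regulator in the secretoglobin levels was not tested.

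The forkhead genes differed from each other. Foxa1 averaged 157 RPKM in BSCs and 135 in non-basal cells, whereas Foxa2 averaged 0.555 in BSCs and 8.95 in non-basal cells (log2 difference 4.00, adjusted p = 4.58e-13, edgeR). In the lung Foxa2 lay between 28.1 and 43.3 RPKM in the 3 epithelial gates. Spdef, an Ets factor of goblet cells, averaged 23.2 RPKM in non-basal, 9.33 in CD24lo, 4.48 in BSCs, 3.97 in alveolar, 1.48 in CD24hi and 0.0576 in EpCAM-negative cells. Its 2 highest populations were also the 2 highest for Scgb3a1 and Scgb3a2, for Notch2 of the same list and, by mean alone, for Hes1. Below them the order differed, since Spdef was higher in alveolar than in CD24hi cells and both secretoglobins were lower. Notch2, a receptor of the pathway that promotes secretory fate, was higher in non-basal cells than in BSCs (1.56, log2) and in CD24lo than in CD24hi cells (1.11, log2).

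Of 5 genes for described binding partners of secretoglobins, 1 was higher and 2 lower in non-basal cells than in BSCs, beside 26.2% and 21.9% of all tested genes. Of the 5, only Itga4, an integrin subunit gene, was called between CD24lo and CD24hi cells (log2 -0.72, adjusted p = 0.0438, edgeR), beside 55.0% of all tested genes. Sdc1, which encodes the proteoglycan syndecan-1, averaged 185 RPKM in BSCs and 177 in alveolar cells, against 76.2 in non-basal cells. Marco, a scavenger receptor gene of macrophages, had 0 reads in every BSC and non-basal library and at most 0.394 RPKM on average in any lung gate.

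Across the 18 libraries, Scgb3a1 and Scgb3a2 were the most alike (Pearson r = 0.969 of log2 CPM, counts scaled for library size), while Scgb1a1 had r = 0.772 with Scgb3a1 and 0.679 with Scgb3a2. In the 12 lung libraries alone the 3 coefficients were 0.992 to 0.998. These describe 6 populations of 3 libraries each, in 2 organs that also differ in depth, and are not tests. The 5 genes most like Scgb3a1 over all libraries were Muc5b (r = 0.997), Bpifb1, Tyro3, Fer1l6 and Clca1 (r = 0.985), of which Muc5b encodes a gel-forming mucin and Bpifb1 a secreted airway defence protein. Muc5b averaged 268 RPKM in non-basal and 93.3 in CD24lo cells, then 6.59 in CD24hi, 5.40 in BSCs, 0.310 in EpCAM-negative and 0.280 in alveolar cells. The 5 most like Scgb3a2 were Itprid1 (r = 0.990), Tyro3, Lypd2, Gabrp and Lrrc26 (r = 0.984). Lypd2 averaged 580 RPKM in BSCs and 179 in CD24hi cells, the same order as for Scgb3a2, but Lypd2 was picked for its likeness. Among the 15 club cell genes, which include Lypd2, 6 had a called excess in BSCs over CD24hi cells and 7 a called deficit.

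The 5 genes most like Scgb1a1 were Ndufaf7 (r = 0.965), Cacnb1, B430010I23Rik, Esyt3 and Cckar (r = 0.928). Scgb1a1 ranked first per length in the airway gates of the lung, so any match was lower in level there. Cckar, a cholecystokinin receptor gene, averaged 129 RPKM in CD24lo, 35.8 in non-basal and 32.9 in CD24hi cells. It averaged 11.0 in alveolar cells, 0.558 in EpCAM-negative cells and 0.544 in BSCs. By means this is the order of Scgb1a1 with non-basal and CD24hi exchanged, but Cckar was picked for its likeness. Its non-basal and CD24hi levels did not differ past the threshold (adjusted p = 0.467, edgeR). Nor did its BSC and EpCAM-negative levels (adjusted p = 0.886, edgeR). Ndufaf7, a mitochondrial complex I assembly factor gene, ranged from 7.87 to 26.7 RPKM between group means.

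Of the other 28 secretoglobin genes in the files, 22 had 0 reads in every library and 2 passed the filter for testing. Scgb1c1 (chromosome 7) had 362, 383 and 418 reads in CD24lo, 288, 231 and 263 in alveolar and 102, 70 and 60 in CD24hi cells, and 2 to 5 reads in every other library. Its level was 90.8 RPKM in CD24lo and 55.8 in alveolar cells, a log2 difference of 0.70 (adjusted p = 0.00194, edgeR), and CD24hi cells were lower than alveolar cells (log2 -2.05, adjusted p = 1.98e-08, edgeR). It thus differed in order from the 3 main secretoglobins, for which alveolar cells lay below CD24hi cells. Of its exonic bases, 18.7% overlap another annotated gene. Scgb2b2 had 7, 7 and 8 reads in the non-basal libraries, 1 in BSC replicate 2 and 0 in all others, and reads of near-identical paralogs in this family may have been divided or lost in counting.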

How the data were processed

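Single-end reads had been aligned by the authors to mm10 with Rsubread and assigned to Entrez genes with featureCounts and its in-built RefSeq annotation; bcl2fastq 1.8.4 is named in the submitters' processing notes. The deposited values are raw counts per gene, not normalized, with a gene length. The series-wide table repeats these counts and was left out. Whether counting used strand is not given in the sources used here.

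Later steps used R 4.3.3. The filter kept 17989 genes, those over 0.2 counts per 1e6 reads (CPM) in 3 or more libraries. After TMM scaling, a single quasi-likelihood model of the 18 libraries was fitted in edgeR 4.0.16, and p-values were adjusted by Benjamini-Hochberg over the tested genes of each comparison. RPKM used the file lengths and TMM library sizes. Ratios within a library, with 0.5 added to each count, were compared by two-sided exact permutation tests. Depths and the Wilson intervals are given above. On simulated counts for CD24lo against CD24hi, over 17989 genes, 175 of 200 changed genes were recovered and 11 unchanged genes were called. The simulation gave all genes the same spread and had no differences between mice, so it does not measure recovery in the real libraries.

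Groups and mouse numbers came from the sample labels. These numbers differ between trachea and lung, whereas the paper compared mouse alveolar cells with BSCs by a paired t test. Populations of one organ came from the same 3 mice, and same-mouse deviations correlated by 0.117 to 0.336 in the trachea and by -0.0593 to 0.278 in the lung. No 2 libraries of a population agreed within sampling noise (lowest chi-square per degree of freedom 3.67). By this value replicate 1 stood apart from replicates 2 and 3 in BSC, non-basal, CD24hi and CD24lo cells. Its values were 22.5 to 42.4, against 5.49 to 7.88 between replicates 2 and 3. In alveolar cells replicate 2 stood apart (39.2 and 41.1, against 6.05 between replicates 1 and 3). The cause was not tested. The members, gene lists and comparisons were chosen with earlier results of these data known, so no list is independent evidence. Named genes are the members, the listed genes, the other secretoglobins and, per member, the 5 genes with the highest Pearson r of log2 CPM (prior count 2) among genes averaging 10 CPM or more. Of the ciliated list, Dnai1 was not matched. Alternatives were RLE factors, library size alone, sizes and factors without the 3 secretoglobins, a CPM above 1 or no filter, limma 3.58.1 voom, DESeq2 1.42.0, only the libraries compared, the mouse as a block, and leaving out each library.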

Additional observations from a re-analysis of the deposited data

How the results depend on the processing

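Of the member fold changes recomputed under the alternatives, 303 kept their direction and side of the threshold, 3 became significant and 3 changed sign, and all 6 of these concern alveolar against EpCAM-negative cells. Scgb3a1 there had a log2 difference of -0.080 with library size alone and between -0.066 and 0.242 when 1 library was left out, being negative without alveolar replicate 2 (-0.066) and without EpCAM-negative replicate 1 (-0.018). For Scgb3a2 it was 0.45 with the mouse as a replicate block and 0.46 with only these 6 libraries, and 0.25 to 0.59 when 1 library was left out. The block changed no other call of a member, and comparisons of trachea with lung have none because their mice differ. Between CD24lo and EpCAM-negative cells the log2 ratio of Scgb3a2 to Scgb1a1 differed by -0.068 to 0.117 when 1 library was left out. The cause of these changes was not tested.

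The number of population pairs called stayed at 14, 14 and 13 for Scgb1a1, Scgb3a1 and Scgb3a2 under every scaling, filter and tool run on all libraries. Library size alone, without TMM, shifted the median log2 difference of all genes to -0.31 for non-basal against BSC (2989 genes higher, 7780 lower, instead of 4720 and 3948), -0.21 for CD24lo against CD24hi (3233 and 7002, instead of 4901 and 4998), 0.29 for CD24hi against alveolar (7285 and 3858, instead of 5479 and 5653), -0.19 for alveolar against EpCAM-negative (4121 and 6937, instead of 5256 and 5875) and 0.29 for BSC against alveolar (7924 and 4363, instead of 5485 and 6411). All member differences in these comparisons but that of Scgb3a1 named above kept their sign. Under this scaling 33 of 90 percent-of-CD24lo values moved by over 1 SD, as did 5 of 36 member levels over both other scalings, and 13 of 15 club cell genes rather than 15 were higher in CD24lo than in CD24hi. The genes most like a member depend on the libraries used, since in the 12 lung libraries 0 of the 5 for Scgb1a1, 1 for Scgb3a1 and 1 for Scgb3a2 were shared. With 3 libraries per population and Scgb3a1 at 110 to 182 reads in the 2 lowest populations, small differences there were not detectable.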
